A study of Mus musculus with 12 samples.

Results

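The extracellular matrix genes described here are 43 genes listed by symbol for their known place in the matrix: 14 collagen chains, 4 small leucine-rich proteoglycans, 8 glycoproteins and matricellular proteins, 7 genes of elastic fibres, 3 crosslinking enzymes, 2 factors that fold or process procollagen, 2 matrix metalloproteinases and 3 of their inhibitors. The list was drawn up with earlier results of these data known. Contrasts of the members with all genes therefore describe this list only. All 43 were found among the 38898 genes of the transcript tables, and all 43 passed the filter on low counts together with 17602 genes in all. RNA was measured in 12 subcutaneous tumors grown from Rd76-9 cells, a mouse line of embryonal rhabdomyosarcoma (RMS, a cancer of muscle lineage), in the flank of wild type C57/Bl6J mice aged 8 to 12 weeks. The cells were injected in PBS mixed with Matrigel, itself an extract of basement membrane proteins, and the tumors were taken on day 16. Each group held 3 tumors, 1 library each. Vehicle-treated mice (m1, m2 and m3) received empty nanoparticles and saline, VCR-treated mice (m4, m5 and m6) received vincristine at 0.25 mg/kg, RCM1-NPFA-treated mice (m7, m8 and m9) received 8 µg of the FOXM1 inhibitor RCM1 in nanoparticles carrying folic acid, and the combination group (m10, m11 and m12) received both. The treatment label of the vehicle samples also names the RCM1 nanoparticle, so groups were taken from the sample titles. Every tumor came from the same cell line, and p-values therefore describe the spread between tumors of a single line.

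Collagens are built from 3 chains wound around each other. Fibrillar collagens I, III and V form the tensile fibres of connective tissue, whereas collagen IV forms the sheet-like network of basement membranes, to which collagens XV and XVIII attach. Procollagen is folded with the chaperone encoded by Serpinh1, trimmed outside the cell with the help of the enhancer encoded by Pcolce, and crosslinked by lysyl oxidases. Matrix metalloproteinases cut the finished matrix, and tissue inhibitors of metalloproteinases (Timps) restrain them. Fibroblasts and pericytes are the usual source of fibrillar collagen in tumors, but tumor cells can also make matrix. In bulk tumor RNA, fewer cells of a type and less RNA per cell cannot be told apart.

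Library totals ran from 29342195 to 32108055 estimated counts, so depth differed little between tumors. The 43 genes held between 1.69% and 2.60% of all estimated counts. Myf5, a muscle lineage factor, was present at 48.8 to 69.8 CPM (estimated counts scaled to the library total) in every tumor, while Myod1 reached at most 2.38 CPM and Pax7 at most 0.190 CPM, so 2 of the 5 genes taken as markers of RMS or myoblasts were low or near 0. Des (desmin, made by myoblasts and by muscle fibres) varied with the groups, at 7.76 to 11.4 CPM with vehicle, 134 to 429 CPM with VCR, 11.7 to 572 CPM with RCM1-NPFA and 55.0 to 201 CPM with the combination. The 5 genes summed to 65.2 to 81.4 CPM with vehicle and 208 to 492 CPM with VCR, without overlap, and Des and Myod1 passed as higher with VCR (edgeR). RNA of adult muscle fibres varied most between the tumors. The summed level of 10 fibre genes, all of them detected, was 41.3 to 157 CPM with vehicle, 1574 to 11697 CPM with VCR, 147 to 17723 CPM with RCM1-NPFA and 427 to 4360 CPM with the combination, with the highest values in m9 and m5. Summed markers of other cell types overlapped between vehicle and each treated group for fibroblasts (6 genes, 133 to 171 CPM in vehicle-treated tumors and 150 to 183 CPM over the other 9) and leukocytes (6 genes, 757 to 898 and 746 to 933 CPM). The fibroblast sum was mostly Cd34, at 88.4 to 115 CPM. Over the 6 fibroblast genes the median log2 fold change with VCR was 0.60, and 1 of them, Pi16, passed in edgeR, at 1.38 to 4.26 CPM with vehicle and 6.28 to 10.8 CPM with VCR. The 5 endothelial markers summed to 111 to 149 CPM in vehicle-treated tumors and to 149 to 200 CPM in the other 9. Every one of the 9 was above every vehicle-treated tumor, but the margin was thin, with m1 at 149.08 and m6 at 149.27 CPM. Taken singly, each of the 5 genes overlapped between vehicle-treated tumors and the other 9. Pericyte and smooth muscle markers summed to 303 to 386 CPM and 335 to 490 CPM, respectively, and 1 of the 5, Rgs5, passed with VCR, at 27.4 to 32.2 CPM with vehicle and 37.4 to 53.6 CPM with VCR. The 4 keratinocyte markers summed to 5.03 to 6.51 CPM, nearly all of it Krt10, with Krt1 at or under 3 counts everywhere. The 4 markers of cartilage and bone together stayed at or below 1.55 CPM. Adipocyte markers (5 genes) summed to 6.48 to 84.4 CPM with vehicle and 30.2 to 65.5 CPM with VCR. Their sums were 19.5 to 32.2 CPM with RCM1-NPFA and 19.1 to 50.5 CPM with the combination, all overlapping vehicle. With RCM1-NPFA 3 of the 5 were lower at an unadjusted p under 0.05 (edgeR), against 9.78% of all genes in either direction.

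Levels were compared between genes in TPM, a unit that takes transcript length into account. Biglycan (Bgn), a small proteoglycan that binds collagen, was the most abundant member, at 1207 to 2544 TPM, and ranked 94 among all genes by mean TPM. It was followed by Sparc, which binds collagen and calcium, at 921 to 1270 TPM, by Col1a2 at 652 to 926 TPM and by Col3a1 at 511 to 930 TPM. Pcolce, Fn1 and Serpinh1 came next, with medians of 683, 527 and 453 TPM. The ranges of Col1a2, Col3a1 and Pcolce overlapped, so their order was not fixed within single tumors. At the other end stood Fbln7, a fibulin, at 0.0912 to 1.04 TPM, and Fbln1, at 0.706 to 3.64 TPM. Fibrillar collagens summed to a median of 2016 TPM per tumor, basement membrane collagens to 391 TPM, collagen VI to 364 TPM and the fibril-associated chains Col12a1 and Col14a1 to 13.4 TPM. Crosslinking enzymes summed to 67.6 TPM, most of it Loxl1 (41.0 to 68.0 TPM), while Lox itself ran from 2.02 to 9.75 TPM and Loxl2 from 2.93 to 7.12 TPM. Among proteases, Mmp14, which sits in the cell membrane, had 120 to 176 TPM and the secreted gelatinase Mmp2 9.90 to 31.6 TPM. Timp2 and Timp1 were well above either of them, at 266 to 351 TPM and 188 to 273 TPM, and Timp3 was low, at 1.88 to 10.1 TPM.

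**Figure D1:**
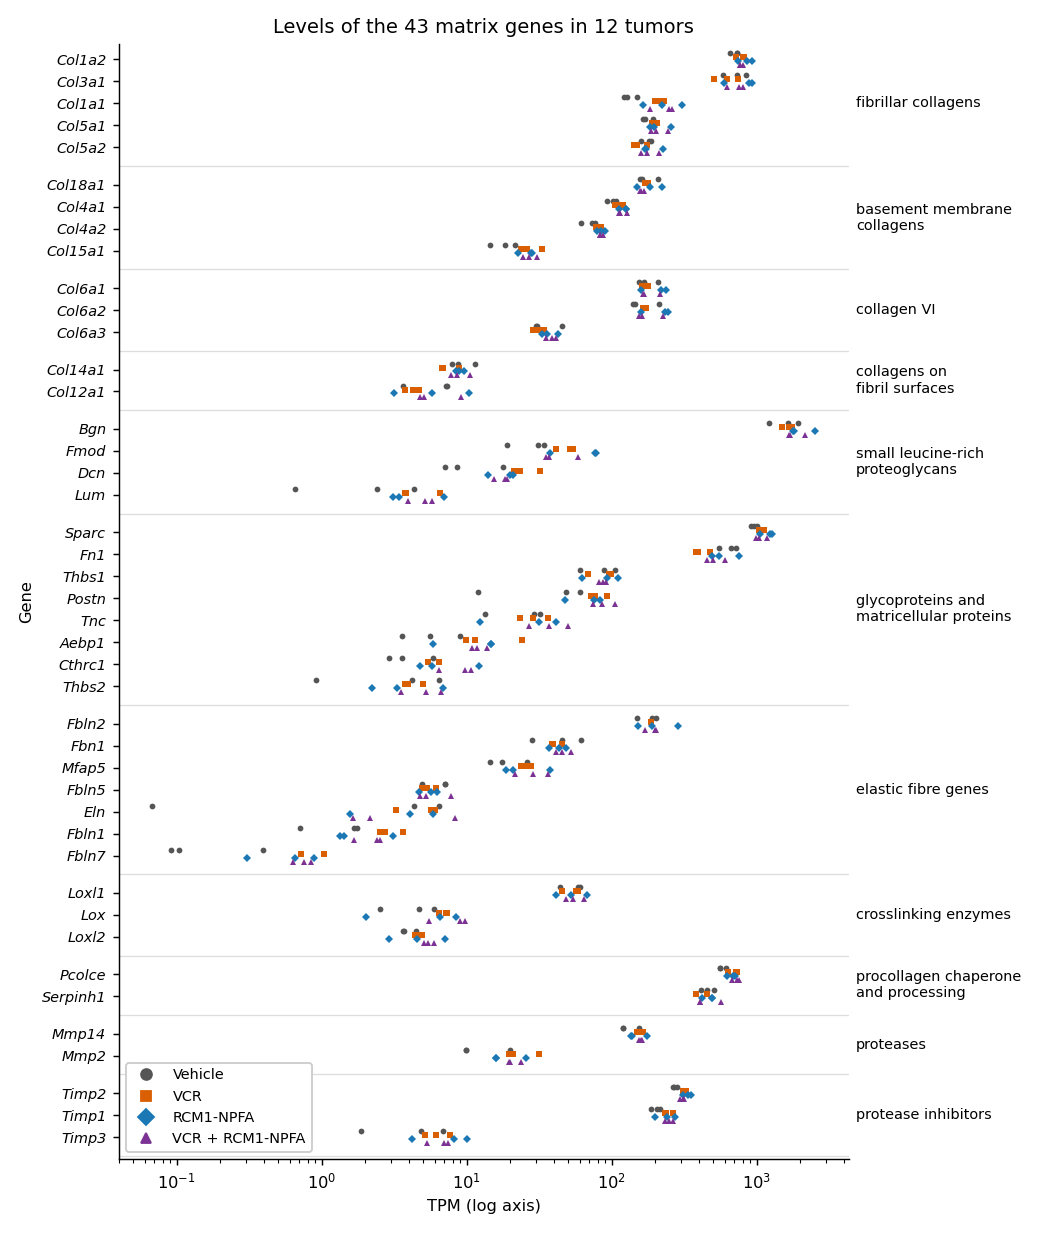
TPM (log axis) of each of the 43 genes in each of the 12 tumors, grouped by class. Each point is 1 tumor, with its symbol giving the group. Bgn reached 2544 TPM, Fbln7 stayed at or below 1.04 TPM, and the vehicle-treated tumor m3 had 0.0677 TPM of Eln.

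The members varied more from tumor to tumor than genes in general. The median SD of log2(CPM + 0.1) over the 12 tumors was 0.28 for the 43 genes and 0.20 for all 17602 genes tested. The steadiest members were the chaperone Serpinh1, with a 1.36-fold span from the lowest to the highest tumor, Timp2 (1.42-fold), Pcolce (1.42-fold), Col5a2 (1.44-fold) and Sparc (1.44-fold). Elastin (Eln), the core of elastic fibres, spanned 66.2-fold. It stood at 0.0677 TPM in m3 and at 1.57 to 8.25 TPM in the other 11 tumors. All these spans were taken on CPM + 0.1, which shortens them for genes at low level, so they differ from ratios of TPM. Lum (lumican) spanned 9.15-fold and Postn (periostin, a matricellular protein of remodelling tissue) 7.86-fold, and both were lowest in m3. Extremes were unevenly placed: 17 members were lowest in m2 and 12 in m3, both vehicle-treated, against 14.4% and 12.4% of all genes tested, and 16 members were highest in m7 (RCM1-NPFA) and 12 in m5 (VCR), against 5.22% and 15.3%.

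The comparison of VCR with vehicle asks how the low dose of vincristine alone altered the tumors. After VCR, 6 of the 43 members passed the threshold (edgeR, adjusted p under 0.1), with Col1a1, Col15a1, Dcn, Fbln7 and Pcolce higher and Fn1 lower. Of all genes tested, 5.55% passed, 2.8% higher and 2.75% lower. At an unadjusted p under 0.05 there were 16 members, 15 of them higher, against 22.1% of all genes. The median log2 fold change was 0.27 over the members, with 33 of 43 above 0, and 0.00 over all genes tested. Over the 79 other matrix genes tested, described below, this median was -0.01. In 18 members every VCR-treated tumor was above every vehicle-treated tumor, and in 1, Fn1, every one was below. Over all genes these shares were 13.5% and 10.9%. DESeq2, run as an alternative, passed 13 members, 12 of them higher, with 13% of all genes passing. The count of 6 fell to 0 in edgeR when m2, m4, m5 or m11 was left out and reached 11 without m9. It was also 0 without m5 and m9 together, the tumors richest in muscle fibre RNA, an alternative chosen after the data were seen. The counts over all genes moved as well, to 0, 0, 0 and 1 without m2, m4, m5 and m11, to 1407 of 17985 without m9 and to 253 of 17870 without m5 and m9. Muscle fibre RNA, the endothelial sum, Des, Pi16 and Rgs5, given above, were higher in all VCR-treated tumors than in all vehicle-treated ones. For the endothelial sum the margin was thin. The part of all of these in the differences of the members was not tested.

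Col1a1 (chr11:94936224-94953042 in GRCm38) encodes the α1 chain of collagen I. Its level was 150, 122 and 128 TPM in the vehicle-treated tumors and 230, 217 and 200 TPM in the VCR-treated ones. It stood at 303, 222 and 164 TPM after RCM1-NPFA and at 248, 184 and 259 TPM after the combination. All 9 treated tumors were above all 3 vehicle-treated ones, and the 3 treated groups overlapped each other. Against vehicle, the log2 fold change was 0.76 ± 0.20 (SE; edgeR adjusted p = 0.087) with VCR. With RCM1-NPFA it was 0.81 ± 0.20 (adjusted p = 0.42) and with the combination 0.78 ± 0.20 (adjusted p = 0.67), so the estimates were alike in size while only the first passed. These 3 comparisons share the same vehicle-treated tumors. Des, Rgs5 and the endothelial sum were also above the vehicle range in all 9 treated tumors, Des and the endothelial sum by thin margins. The part of all of these was not tested.

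Col15a1 (chr4:47207655-47313167) encodes the chain of collagen XV, a basement membrane collagen that is rich around muscle fibres and small vessels. Vehicle-treated tumors had 21.5, 18.3 and 14.4 TPM and VCR-treated tumors 23.6, 32.9 and 26.0 TPM. Tumors treated with RCM1-NPFA had 28.1, 22.5 and 27.9 TPM, and those given both had 30.4, 27.0 and 24.6 TPM. As with Col1a1, no treated tumor fell into the vehicle range. The log2 fold change with VCR was 0.68 ± 0.14 (edgeR adjusted p = 0.069), the lowest adjusted p among the members. It was 0.56 ± 0.14 (adjusted p = 0.42) with RCM1-NPFA and 0.58 ± 0.14 (adjusted p = 0.67) with the combination.

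Dcn (chr10:97479500-97518163) encodes decorin, a proteoglycan that coats collagen fibrils. It was measured at 17.9, 8.51 and 7.10 TPM in vehicle-treated tumors and at 21.0, 32.1 and 23.1 TPM after VCR. The groups did not overlap, although m1 lay close to the lowest VCR-treated tumor. The log2 fold change was 1.28 ± 0.30 (edgeR adjusted p = 0.075). After RCM1-NPFA, Dcn stood at 20.7, 13.9 and 19.8 TPM and after the combination at 18.9, 15.3 and 18.5 TPM, and both ranges included the level of m1. Its neighbours in function were spread: Lum had 4.30, 2.40 and 0.659 TPM in vehicle-treated tumors and 3.76, 6.51 and 3.83 TPM after VCR, with overlap.

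Fbln7 (chr2:128863865-128897034) encodes fibulin 7, a secreted adhesion protein. Vehicle-treated tumors had 0.393, 0.103 and 0.0912 TPM, VCR-treated tumors 0.723, 1.04 and 0.725 TPM. This member had the largest fitted change with VCR, at a log2 fold change of 2.16 ± 0.51 (edgeR adjusted p = 0.076). It was also the least abundant member, with 5.01 to 59.0 estimated counts per tumor, so counting error weighs more here than for the other members. With RCM1-NPFA its level was 0.649, 0.304 and 0.884 TPM, overlapping m1, and with the combination 0.635, 0.840 and 0.759 TPM, above all vehicle-treated tumors. The log2 fold change with the combination was 1.92 ± 0.51 (adjusted p = 0.67).

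Pcolce (chr5:137605105-137611522) encodes the enhancer of the protease that trims the end of procollagen. The change was small and even: 610, 560 and 557 TPM in vehicle-treated tumors and 724, 637 and 735 TPM after VCR, without overlap. The log2 fold change was 0.35 ± 0.08 (edgeR adjusted p = 0.076). All 6 tumors that received RCM1-NPFA, alone or with VCR, were also above the vehicle range, at 621 to 750 TPM. Serpinh1, the other gene of this class, stood at 414, 510 and 453 TPM in vehicle-treated tumors and 453, 383 and 455 TPM after VCR, with overlap.

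Fn1 (chr1:71585473-71653280) encodes fibronectin, the glycoprotein on which cells assemble a provisional matrix. It fell with VCR, from 666, 553 and 719 TPM to 382, 391 and 480 TPM, and the groups did not overlap. Its log2 fold change was -0.59 ± 0.17 (edgeR adjusted p = 0.098), close to the threshold. RCM1-NPFA-treated tumors had 760, 491 and 553 TPM, spanning the vehicle range, and their log2 fold change was -0.10 ± 0.17 (adjusted p = 0.90). Tumors given the combination lay between, at 603, 454 and 502 TPM, with a log2 fold change of -0.34 ± 0.17 (adjusted p = 0.69). The direct comparison of VCR with RCM1-NPFA gave -0.49 ± 0.17 (edgeR unadjusted p = 0.014, adjusted p = 0.90) and did not pass.

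**Figure D2:**
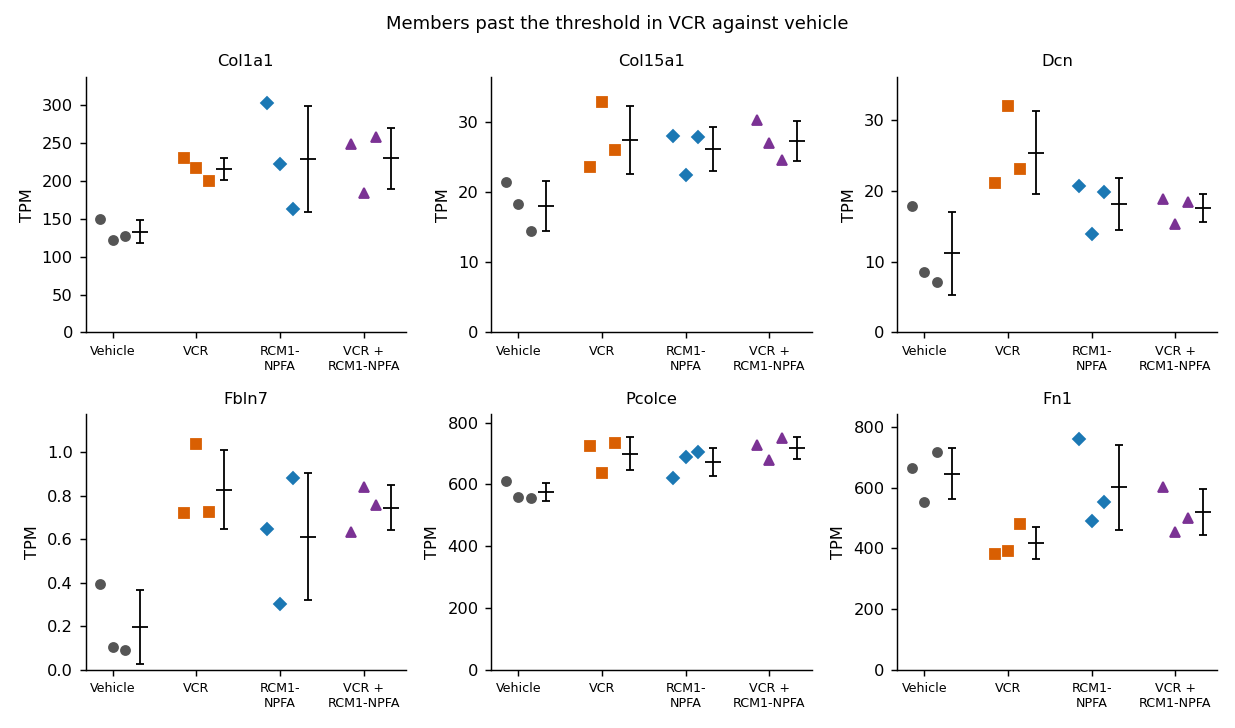
TPM of the 6 members that passed the threshold between VCR and vehicle, in all 4 groups. Points are tumors, in the order of their numbers, and bars show the group mean ± SD (n = 3). For Col1a1 and Col15a1 all 9 treated tumors lie above the 3 vehicle-treated ones, and Fn1 is lowest after VCR, at 418 ± 54.2 TPM against 646 ± 84.7 TPM.

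Fn1 transcripts differ by cassette exons. EDA and EDB each encode 1 extra fibronectin type III repeat and are typical of the fibronectin that cells make locally, whereas plasma fibronectin from the liver lacks both. The exons are shown because the matched transcripts were sorted by them. They were read from the GENCODE transcript sequence in GRCm38, on the minus strand of chromosome 1, with the cassette exon in capitals and 12 bases of each adjoining exon in lower case. EDB (chr1:71613763-71614035) is exon 25 and EDA (chr1:71603660-71603929) exon 33 of the 46 exons of the longest transcript.
EDB: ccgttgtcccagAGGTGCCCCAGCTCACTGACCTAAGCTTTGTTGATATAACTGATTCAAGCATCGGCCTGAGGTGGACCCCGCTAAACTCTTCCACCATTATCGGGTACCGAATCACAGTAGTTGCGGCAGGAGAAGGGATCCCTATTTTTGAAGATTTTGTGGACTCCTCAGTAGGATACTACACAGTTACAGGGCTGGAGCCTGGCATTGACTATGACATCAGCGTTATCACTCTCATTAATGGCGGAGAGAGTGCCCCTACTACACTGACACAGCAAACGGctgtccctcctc
EDA: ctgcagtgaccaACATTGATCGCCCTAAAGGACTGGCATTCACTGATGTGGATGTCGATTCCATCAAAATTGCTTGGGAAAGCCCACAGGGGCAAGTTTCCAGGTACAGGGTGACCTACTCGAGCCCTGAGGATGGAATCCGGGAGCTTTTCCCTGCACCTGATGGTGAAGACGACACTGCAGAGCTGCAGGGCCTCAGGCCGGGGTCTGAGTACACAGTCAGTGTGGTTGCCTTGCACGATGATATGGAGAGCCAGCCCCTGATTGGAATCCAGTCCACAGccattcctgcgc

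Of the 15 Fn1 transcripts in the tables, 7 could be matched to annotated exon structures, and these held 86.8% to 94.6% of Fn1 TPM. EDA was present in 4 of the 7 and EDB in 1. Transcripts with EDA made up 70.7%, 76.2% and 67.8% of the matched Fn1 TPM in vehicle-treated tumors and 66.7%, 54.3% and 64.2% after VCR. After RCM1-NPFA the share was 64.9%, 62.3% and 63.3%, again below all vehicle-treated tumors, and after the combination it was 70.9%, 65.9% and 67.9%, overlapping them. In absolute terms, transcripts with EDA went from 408 ± 40.7 TPM (SD, n = 3) in vehicle-treated tumors to 240 ± 42.7 TPM after VCR, without overlap. Matched transcripts without EDA stood at 166 ± 49.2 TPM and 147 ± 23.9 TPM, with overlap. These values leave out the unmatched Fn1 transcripts, which could not be sorted by EDA. The matched part of Fn1 TPM was 87.0%, 86.8% and 91.7% with vehicle and 94.6%, 92.4% and 91.3% after VCR. It is therefore not known whether the fall of Fn1 was confined to transcripts with EDA. The EDB transcript, which was 1 of the matched 7, held 4.83% to 11.4% of matched Fn1 TPM, with overlap between vehicle and each group. Its level was 44.1 ± 9.86 TPM in vehicle-treated tumors and 24.4 ± 6.57 TPM after VCR, also without overlap. These shares are estimates from reads that several transcripts share, and they were not tested.

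**Figure D3:**
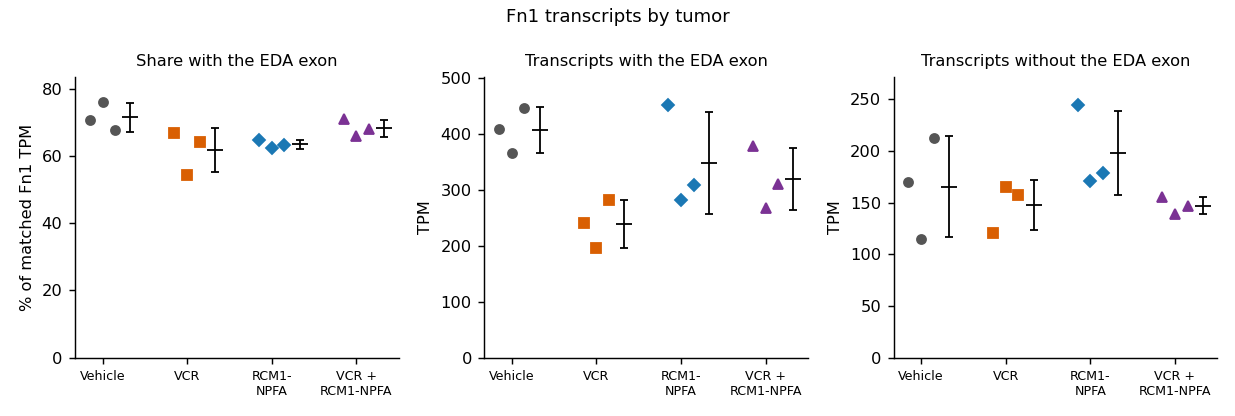
Share of matched Fn1 TPM from transcripts with the EDA exon (%), and TPM of matched transcripts with and without it, in each tumor. Unmatched Fn1 transcripts are left out. Points are tumors and bars show the mean ± SD (n = 3). Transcripts with EDA had 408 ± 40.7 TPM in vehicle-treated and 240 ± 42.7 TPM in VCR-treated tumors, and those without EDA overlapped.

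Below the threshold in the comparison of VCR with vehicle, 3 members sat just outside it, and they were picked out after their values were seen. Timp1, an inhibitor of metalloproteinases, stood at 216, 205 and 188 TPM with vehicle and at 232, 264 and 237 TPM after VCR, without overlap (log2 fold change 0.36 ± 0.11). Aebp1, a collagen-binding protein, had a log2 fold change of 1.43 ± 0.42, and Fbln1, a fibulin of elastic fibres, one of 1.22 ± 0.36. The edgeR adjusted p of all 3 rounds to the threshold itself and lies just above it. The last member inside was Fn1 at 0.098. Small shifts in settings therefore move the count of 6.

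Fibrillar and basement membrane collagens were compared chain by chain. With VCR, 1 of 5 fibrillar and 1 of 4 basement membrane chains passed, and the medians of their log2 fold changes were 0.21 and 0.25. Collagen III, encoded by Col3a1, had 730, 584 and 850 TPM in vehicle-treated and 628, 511 and 746 TPM in VCR-treated tumors (log2 fold change -0.16 ± 0.21, 95% interval -0.61 to 0.30, edgeR adjusted p = 0.70). With RCM1-NPFA and with the combination Col3a1 changed by 0.17 ± 0.21 (adjusted p = 0.84) and -0.00 ± 0.21 (adjusted p = 0.999). Col4a1, the main chain of basement membrane collagen IV, had 102, 92.9 and 108 TPM in vehicle-treated tumors and 106, 119 and 116 TPM after VCR, with overlap (log2 fold change 0.23 ± 0.10, adjusted p = 0.20). Its log2 fold change was 0.29 ± 0.10 (adjusted p = 0.43) with RCM1-NPFA, where all 3 tumors were above the vehicle range, and 0.21 ± 0.10 (adjusted p = 0.69) with the combination. None of the 3 collagen VI chains and neither of the fibril-associated chains passed, and Col12a1 and Col14a1 had values below 0 with VCR (-0.43 and -0.25).

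Because collagen chains pair in fixed proportions, ratios of TPM were formed within each tumor. Collagen I is built from 2 α1 chains and 1 α2 chain, but at the RNA level Col1a1 was below Col1a2 in all 12 tumors. The ratio of Col1a1 to Col1a2 was 0.206, 0.188 and 0.175 in vehicle-treated tumors and 0.287, 0.301 and 0.244 after VCR. It was 0.327, 0.260 and 0.219 after RCM1-NPFA and 0.310, 0.239 and 0.335 after the combination, so that every treated tumor exceeded every vehicle-treated one. On the log2 scale the groups differed from vehicle by 0.54, 0.49 and 0.63, and the span over the 12 tumors was 1.91-fold. Col4a1 to Col4a2, a head-to-head gene pair on chromosome 8 whose annotated ends overlap, held far steadier, at or above 1.36 in all tumors and with a 1.11-fold span. The pair Col6a1 and Col6a2, which are neighbours on chromosome 10, spanned 1.23-fold, with a ratio of 0.936 to 1.15. Reads of Col4a1 and Col4a2 in their shared ends may not be separable, since the libraries are described as non-stranded although a stranded kit is named.

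Between classes, ratios moved little. Fibrillar collagens stood at 5.25 ± 0.35 times the TPM of basement membrane collagens with vehicle (SD, n = 3), at 5.01 ± 0.55 with VCR, 5.44 ± 0.62 with RCM1-NPFA and 5.46 ± 0.31 after the combination. The TPM of the 3 lysyl oxidases, as a share of that of fibrillar collagens, was 0.0329 ± 0.0016 with vehicle, 0.0331 ± 0.0015 with VCR, 0.0281 ± 0.0039 after RCM1-NPFA and 0.0322 ± 0.0033 after the combination. Mmp2 and Mmp14 together had 0.300 ± 0.046 of the TPM of the 3 Timps with vehicle, and 0.318 ± 0.014, 0.292 ± 0.029 and 0.319 ± 0.025 in the treated groups in the same order. In all 3 ratios the treated groups overlapped the vehicle group.

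**Figure D4:**
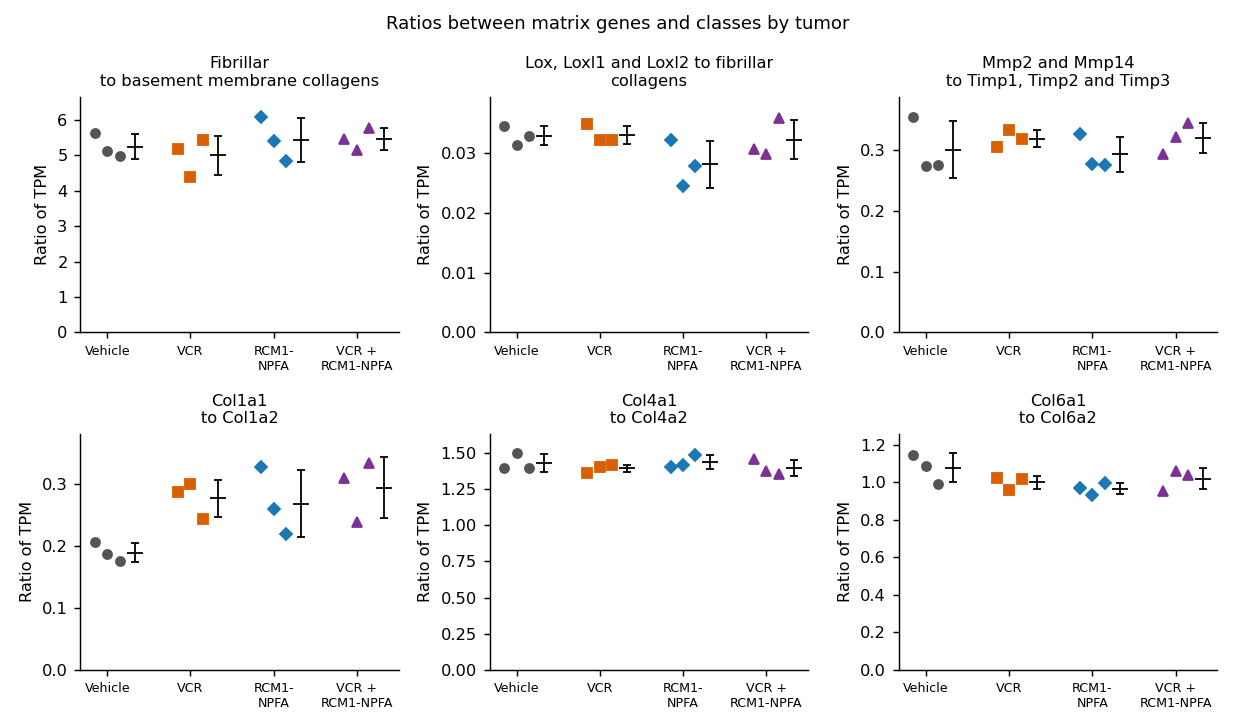
Ratios of TPM within each tumor for 3 pairs of classes and 3 pairs of chains. Points are tumors and bars show the group mean ± SD (n = 3), with axes from 0. The ratio of Col1a1 to Col1a2 was 0.175 to 0.206 in vehicle-treated tumors and 0.219 to 0.335 in the other 9, while the other 5 ratios overlapped.

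No crosslinking enzyme passed in any comparison with vehicle, in edgeR or in DESeq2. Lox, the founding lysyl oxidase, had 5.96, 4.70 and 2.51 TPM in vehicle-treated tumors and 6.43, 7.36 and 7.14 TPM after VCR, without overlap (log2 fold change 0.75 ± 0.42, edgeR adjusted p = 0.32). With RCM1-NPFA it had 8.48, 2.02 and 6.56 TPM, the widest spread of any group (0.40 ± 0.42, adjusted p = 0.80), and with the combination 9.75, 5.50 and 8.94 TPM (0.89 ± 0.42, adjusted p = 0.69). Loxl2, which acts on collagen IV, changed by 0.33 ± 0.24 with VCR (adjusted p = 0.44), 0.33 ± 0.24 with RCM1-NPFA (adjusted p = 0.69) and 0.48 ± 0.24 with the combination (adjusted p = 0.69). For Loxl1, which acts mainly on elastic fibres, values lay at 41.0 to 68.0 TPM in all groups.

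The proteases and their inhibitors had values above 0 in all 3 comparisons, and none of the 5 passed in edgeR. DESeq2 passed 4 of them with VCR, Mmp2, Mmp14, Timp1 and Timp2, and Timp2 with RCM1-NPFA. Mmp2 had 19.9, 9.96 and 9.90 TPM in vehicle-treated tumors and 19.5, 31.6 and 20.8 TPM after VCR (log2 fold change 0.94 ± 0.29, edgeR adjusted p = 0.11). The TPM of m1 lay within the VCR range, while CPM after normalization did not overlap. With RCM1-NPFA and the combination Mmp2 changed by 0.56 ± 0.29 (adjusted p = 0.57) and 0.67 ± 0.29 (adjusted p = 0.68). Mmp14, which activates pro-Mmp2, changed by 0.33 ± 0.12 (adjusted p = 0.15), 0.22 ± 0.12 (adjusted p = 0.58) and 0.26 ± 0.12 (adjusted p = 0.69) in the order VCR, RCM1-NPFA and combination. Timp1 changed by 0.26 ± 0.11 (adjusted p = 0.45) with RCM1-NPFA and 0.29 ± 0.11 (adjusted p = 0.67) with the combination. Sparc changed by 0.22 ± 0.10 (adjusted p = 0.23), 0.32 ± 0.10 (adjusted p = 0.42) and 0.14 ± 0.10 (adjusted p = 0.77).

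With RCM1-NPFA against vehicle, no member passed in edgeR, nor did any of the 17602 genes (0%). At an unadjusted p under 0.05 there were 15 members, all higher, against 9.78% of all genes. DESeq2 passed 4 members, Col1a1, Fmod, Col15a1 and Timp2, all higher, and 1.57% of all genes. In 8 members every RCM1-NPFA-treated tumor was above every vehicle-treated one, against 5.56% of all genes, and in none was every tumor below (5.86% of all genes). The median log2 fold change of the members was 0.28, with 38 of 43 above 0, against 0.00 over all genes. Fmod (fibromodulin, a proteoglycan that binds fibrillar collagen) had the smallest p: it stood at 30.9, 19.1 and 34.0 TPM in vehicle-treated tumors and at 76.6, 78.5 and 37.7 TPM after RCM1-NPFA, without overlap (log2 fold change 1.22 ± 0.30, edgeR adjusted p = 0.42). After VCR it had 54.1, 41.3 and 51.2 TPM, also above the vehicle range. On the lower side, Fbln5 (-0.17 ± 0.21, adjusted p = 0.85) and Col14a1 (-0.04 ± 0.13, adjusted p = 0.96) differed by less than their SE.

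With the combination against vehicle, again no member and no gene passed in edgeR (0%). At an unadjusted p under 0.05 there were 10 members, all higher, against 7.31% of all genes, and DESeq2 passed Col1a1, Col15a1 and Pcolce, with 0.347% of all genes. In 10 members every tumor given both agents was above every vehicle-treated tumor (7.1% of all genes), and in none was every tumor below (5.53%). The median log2 fold change was 0.24, with 37 of 43 above 0. Fbln7, Col1a1 and Col15a1 had the 3 smallest p-values on the higher side, as given above. On the lower side, after Fn1, Col18a1 (-0.15 ± 0.17, adjusted p = 0.86) and Col14a1 (-0.08 ± 0.13, adjusted p = 0.91) had values within their error. Muscle fibre RNA, the endothelial sum, Des and Rgs5 (38.3 to 39.7 CPM) exceeded the vehicle range in every tumor given both agents. Their part in these differences was not tested.

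**Figure D5:**
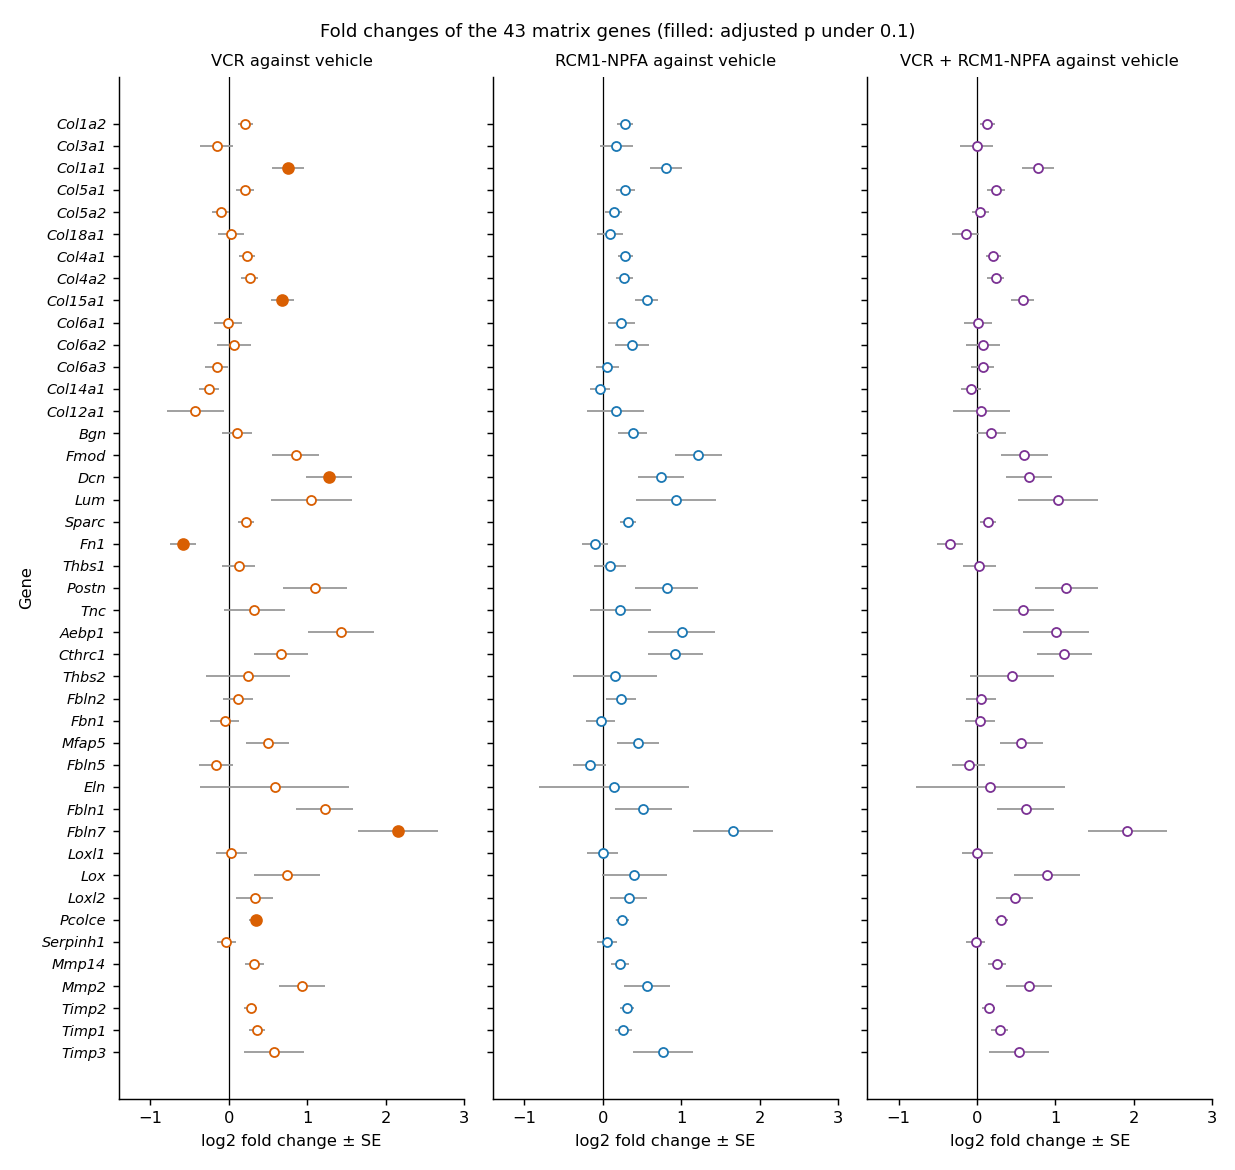
Log2 fold change ± SE (edgeR) of the 43 genes in each treated group against vehicle, on a common scale. Filled points passed the threshold (adjusted p under 0.1), which 6 members did with VCR and none with RCM1-NPFA or the combination. The 3 panels share the same vehicle-treated tumors.

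Treated groups were also set against each other, to ask whether adding the second agent altered the matrix genes. Between the combination and VCR alone 5.26% of all genes had an unadjusted p under 0.05, but no member did. Likewise no member did between the combination and RCM1-NPFA, against 2.07% of all genes. Between VCR and RCM1-NPFA 1 member did, Fn1, against 5.39% of all genes. In edgeR no gene passed the adjusted threshold in any of the 3 (0%), and DESeq2 passed no member and 11, 0 and 1 of all genes in the same order. Col1a1 differed by 0.02 ± 0.20 on the log2 scale between the combination and VCR (95% interval -0.43 to 0.46) and by -0.03 ± 0.20 between the combination and RCM1-NPFA (95% interval -0.47 to 0.41). The largest estimates between the combination and VCR were -0.62 ± 0.29 for Dcn and 0.48 ± 0.37 for Col12a1.

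The interaction of the 2 agents measures how far the combination departs from the sum of the single effects on the log2 scale. For 34 of the 43 members it was below 0, with a median of -0.30 against -0.01 over all genes. No member and no gene passed in edgeR (0%), while 13 members had an unadjusted p under 0.05, all below 0, against 13.8% of all genes. DESeq2 passed 4 members, Timp2, Dcn, Fmod and Col15a1, and 2.62% of all genes. The edgeR estimates of these 4 were -0.44 ± 0.12, -1.36 ± 0.41, -1.47 ± 0.43 and -0.66 ± 0.20 (adjusted p = 0.29 for each). All 4 group means enter this sum, the vehicle mean with a positive sign.

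Across the 12 tumors, Col1a1 was related to 6 other members, with p-values from 100000 permutations, two-sided and adjusted over the 6. Tumors were exchanged across groups, so these p-values take in differences between groups. On the scale of log2(CPM + 0.1) it rose with Mmp2 (Pearson's r = 0.79, permutation p = 0.0020, adjusted p = 0.012; Spearman's rho = 0.80, permutation p = 0.0024, adjusted p = 0.014). For Col4a1, r was 0.69 (permutation p = 0.011, adjusted p = 0.033) and rho 0.54 (permutation p = 0.074, adjusted p = 0.15). For Lox, r was 0.46 (permutation p = 0.13, adjusted p = 0.26) and rho 0.73 (permutation p = 0.0090, adjusted p = 0.027). Col3a1 (r = 0.35, permutation p = 0.26, adjusted p = 0.39; rho = 0.23, permutation p = 0.47, adjusted p = 0.57), Serpinh1 (r = 0.03, permutation p = 0.93; rho = 0.04, permutation p = 0.90) and Fn1 (r = -0.19, permutation p = 0.55; rho = -0.29, permutation p = 0.36) showed no relation that passed. The 2 tumors farthest from the median of Col1a1 were m2 and m3, both vehicle-treated, and without them r fell to 0.52 for Mmp2, 0.57 for Col4a1 and 0.24 for Lox, so these relations rest in part on that pair. Within groups, after taking out the group means, r was 0.59 for Mmp2, 0.25 for Col4a1, 0.24 for Lox, 0.62 for Col3a1, 0.03 for Serpinh1 and 0.56 for Fn1. These values were not tested. Over all 42 other members the median rho with Col1a1 was 0.54, against a median of 0.03 over all genes tested. Of the 42, 38 were at or above 0, with Col5a2 at 0.00, and of all genes 53.4% were above 0. Within groups the median r was 0.39 over the members and 0.0047 over all genes, also not tested.

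Other genes of matrix assembly and sensing were counted from lists of 82 genes, of which 79 were tested. With VCR, 9 of them passed, 1 higher and 8 lower, and their median log2 fold change was -0.01. Of all genes 5.55% passed, 2.8% higher and 2.75% lower. In edgeR no gene at all passed as lower without m2, m4, m5 or m11, and 34 of 17870 did without m5 and m9 together. The lower ones included 4 genes of basement membranes, Col4a5 (-0.75 ± 0.15, edgeR adjusted p = 0.068), Col4a6 (-0.55 ± 0.13, adjusted p = 0.079), the heparan sulfate proteoglycan gene Hspg2 (-0.40 ± 0.10, adjusted p = 0.085) and the laminin chain gene Lamb1 (-0.32 ± 0.09, adjusted p = 0.098). Col4a5 went from a mean of 38.3 TPM to 22.1 TPM. The collagen receptor gene Ddr2 (-0.44 ± 0.09, adjusted p = 0.069), the collagen prolyl hydroxylase gene P4ha1 (-0.61 ± 0.18, adjusted p = 0.099), the lysyl oxidase relative Loxl4 (-0.63 ± 0.17, adjusted p = 0.087) and Smad3, a signal carrier of TGF-beta (-0.29 ± 0.08, adjusted p = 0.086), were also lower. The protease gene Adamts1 was the single one that rose (0.36 ± 0.10, adjusted p = 0.097). By list, 4 of 15 laminin and basement membrane genes passed, 2 of 17 for collagen modification, 1 of 14 other proteases, 1 of 16 TGF-beta genes, 1 of 7 collagen receptors and none of 10 other collagens. None of the 79 passed with RCM1-NPFA or with the combination in edgeR.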

How the data were processed

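Poly-A RNA of each tumor was sequenced, and the authors deposited, per tumor, kallisto estimated counts, TPM, transcript lengths and effective lengths for RefSeq transcripts of GRCm38. The kallisto version is not given in the sources used here. The labels name a stranded kit but call the libraries non-stranded. Estimated counts and TPM were summed over the transcripts of each gene (120299 of 120299 transcripts matched by accession), and summed counts were rounded. Estimated counts were tested with edgeR 4.0.16 (R 4.3.3): filterByExpr with a minimum count of 10, TMM normalization, a quasi-likelihood fit over all 12 tumors and Benjamini-Hochberg adjustment over 17602 genes, with a threshold of 0.1. Alternatives used DESeq2 1.42.0 and limma 3.58.1. Overlap between groups was judged on log2(CPM + 0.1). A two-sided exact permutation test of 3 against 3 tumors cannot go below p = 0.1 and is not quoted gene by gene. The code was tested on simulated counts for VCR against vehicle. There, 76% of genes changed by 1 on the log2 scale passed, and 99% of those changed by 2. Of the genes that passed, 12.5% had not been changed. Changed genes were drawn only from those with higher counts, the spread followed the trend over genes, and all other genes had equal group means. These shares therefore need not hold for the members, least of all for low-level ones such as Fbln7. Coordinates are from RefSeq for GRCm38. Same-group libraries differed by at least 14.5 times counting noise (chi-square per degree of freedom) and libraries of different groups by at least 12.0 times, so none was a duplicate. The medians were 37.7 within groups and 38.5 between groups, so on this measure tumors of 1 group differed about as much as tumors of different groups. The measure gives most weight to genes with many counts. Among these, summed muscle fibre RNA ran from 147 to 17723 CPM within the RCM1-NPFA group, and its part was not tested.

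Fold changes are given for members past the threshold in a comparison (otherwise the 3 smallest p-values in each direction) and for 10 members in all comparisons with vehicle. The members and lists were chosen with earlier results of these data known.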

Additional observations from a re-analysis of the deposited data

How the results depend on the processing

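The count of 6 members with VCR (977 of 17602 genes) became 13 with DESeq2 (2285 of 17602), 15 with DESeq2 without m3 (2711 of 18020), 2 when only the VCR-treated and vehicle-treated tumors were fitted (465 of 16873), 0 at a threshold of 0.05 (9 of 17602) and 0 without m5 and m9, the tumors richest in muscle fibre RNA (253 of 17870). Leaving out 1 tumor at a time gave 0 to 11, with 0 without m2, m4, m5 or m11 (0, 0, 0 and 1 of all genes), 2 without m12 (243 of 18006) and 11 without m9 (1407 of 17985). Other size factors, filters, length offsets, limma-voom and unrounded counts gave 5 to 9. Over all genes, 938 of 17602 passed with other size factors, 760 with length offsets and 681 with limma-voom. Without a filter 599 of 29983 passed, with a mean of at least 50 counts 1226 of 13080, and with unrounded counts 993 of 17624. The count of 0 became 4 with DESeq2 (277 of 17602 genes) and 11 with DESeq2 without m3 (642 of 18020) for RCM1-NPFA, 3 (61) and 5 (156) for the combination, and 4 (461) and 8 (1292) for the interaction, over the same totals. For the combination, edgeR without m5 and m9 passed 2, Col1a1 and Col15a1, with 138 of 17870 genes. Leave-one-out counts stayed at 0 in these comparisons, and comparisons between treated groups gave 0 under every alternative. Leaving out m5 and m9 together, DESeq2 without m3 and unrounded counts were chosen after the data were seen. The cause of these shifts was not tested.

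Of the fold changes named, reversals touched values near 0. Leaving out 1 tumor at a time, Col3a1 ran from -0.33 to 0.044 with VCR and from -0.17 to 0.20 with the combination, Fn1 from -0.30 to 0.047 with RCM1-NPFA, Col14a1 from -0.11 to 0.094 with RCM1-NPFA and from -0.19 to 0.053 with the combination, Lox from -0.00078 to 0.80 and Loxl2 from -0.054 to 0.59 with RCM1-NPFA, and Col18a1 from -0.25 to 0.066 with the combination. The values of Col3a1 and Col18a1, and the highest of Fn1, turned without m3, those of Col14a1 without m2, and those of Lox and Loxl2 without m7. Col3a1 with the combination also turned without m11 (0.097) and Fn1 with RCM1-NPFA without m8 (0.016). DESeq2 without m3 gave 0.028 and 0.19 for Col3a1 with VCR and the combination, 0.043 for Fn1 with RCM1-NPFA and 0.055 for Col18a1 with the combination, and limma-voom gave 0.014 for Col3a1 with the combination.

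For Col1a1 with Col4a1, r was 0.66 (adjusted permutation p = 0.059) on log2 TPM and 0.50 to 0.79 leaving out 1 tumor. It also missed 0.05 without m1, m2, m5, m7 or m10. The range was 0.68 to 0.84 for Mmp2, lowest and no longer passing without m2, 0.34 to 0.81 for Lox, which passed without m8, 0.17 to 0.60 for Col3a1, -0.58 to 0.02 for Fn1 and -0.15 to 0.20 for Serpinh1, which was -0.010 on log2 TPM. Single values that turned were 0.022 without m3 for Fn1, and -0.15, -0.12, -0.092 and -0.011 without m1, m7, m10 and m11 for Serpinh1. The log2 differences of the ratios from vehicle moved by less than the pooled SD of the 2 groups under the alternatives run. Leaving out 1 tumor, that of Col1a1 to Col1a2 stayed above 0, at 0.33 to 0.77 over the 3 groups. Fibrillar to basement membrane collagens crossed 0 with VCR (-0.14 to 0.020) and RCM1-NPFA (-0.034 to 0.13), and Mmp2 and Mmp14 to Timps crossed 0 with RCM1-NPFA (-0.11 to 0.091) and went from 0.092 to 0.22 with VCR without m1. The ratio of Lox, Loxl1 and Loxl2 to fibrillar collagens crossed 0 with VCR and the combination, and Col4a1 to Col4a2 with RCM1-NPFA and the combination, all within 0.12 of 0.

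No paired analysis was possible because each tumor has its own number and no number is shared between groups. With 3 tumors a group, changes of low-level members such as Fbln7 and Eln are poorly resolved.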
